A study of Mus musculus with 2 samples.

Results

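Genes for enzymes that add or remove acetyl and methyl groups on chromatin were followed in the hypothalamus of mice lacking Crtc1 and of wild-type mice. The 64 genes were those whose symbols name a histone deacetylase (Hdac), a sirtuin (Sirt1 to Sirt7), a lysine acetyltransferase (Kat, Crebbp, Ep300), a lysine demethylase (Kdm), a DNA methyltransferase (Dnmt1, Dnmt3a, Dnmt3b), a TET dioxygenase, or a methyltransferase of the Ezh, Setd or Smyd2 to Smyd5 families. They are 64 of 18193 genes with a probe set of their own on the Mouse Genome 430 2.0 array, and 153 probe sets read them. Membership was set by gene symbol and not by measured values, though the group was chosen with earlier results of these data known. A probe set that pairs Kdm6b with another gene was left out.

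Each genotype was represented by 1 array. The knockout array carried hypothalamic RNA of 3 Crtc1 knockout mice mixed in equal amounts, and the wild-type array RNA of 3 wild-type mice mixed in the same way. All animals were 12-week males that had gone 18 h without food and had then eaten for 6 h. A pool hides the spread between mice, so the genotypes could not be tested against each other, and differences lack any check by replicates. The labels and design text name neither the strain, nor how the allele was made, nor in which cells Crtc1 was lost.

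Acetyl groups on histone tails loosen the contact between histones and DNA and are bound by bromodomain proteins, and deacetylases take them off. Methyl groups on histones mark active or silent chromatin according to the residue, and methyl groups on CpG sites are placed by DNMT enzymes and oxidised by TET enzymes. Crtc1 binds and coactivates CREB, which also recruits the acetyltransferases CBP and p300, the products of Crebbp and Ep300. Class IIa deacetylases and CRTC proteins are both held in the cytoplasm by salt-inducible kinases, and SIRT1 is an NAD-dependent deacetylase known for its role in the hypothalamic response to fasting.

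The values are probe-set signals in arbitrary units, and each difference is the log2 knockout signal less the log2 wild-type signal. A probe set was counted as measured when its mean over both arrays reached the median of all probe sets, a signal of 52.3. A gene was read by its measured probe set of highest mean signal. Signals of different probe sets depend on the probes and give no order of transcript levels between genes. The array error is the SD of differences between measured probe sets of the same gene. It shrank with brightness. It was 0.32 for probe sets whose mean log2 signal was under 7, 0.26 between 7 and 8, 0.23 between 8 and 9, 0.21 between 9 and 10, and 0.16 for brighter ones. It holds no spread between mice.

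Crtc1 itself was 7.42-fold and 6.64-fold lower in the knockout pool by its measured probe sets (85.1 against 631 and 31.5 against 209). Of the hypothalamic markers listed, 7 of 9 were measured, and Sim1 was not, with signals of 16.1 to 36.4. Pmch and Hcrt were within their array errors (-0.07 and -0.11). The neuropeptide genes Avp, at 1690 and 1149 (0.56, array error 0.16), and Oxt, at 969 and 695 (0.48, array error 0.21), were past theirs, as was Sst, at 1874 and 2199 (-0.23, array error 0.16). Pomc was at -0.35 by its brightest probe set and 0.64 by the other. Summed marker signals in the knockout pool stood at 20664 against 20617 for 5 neuronal genes, and were 1.03 times those of the wild type for the 7 hypothalamic genes, 1.09 for 5 astrocyte genes, 0.988 for 4 oligodendrocyte genes, 1.18 for 5 microglial genes, 1.22 for 4 endothelial genes and 0.886 for 5 choroid plexus genes. Ttr, at 7745 and 8571, made up most of the choroid plexus sum. All 5 choroid plexus genes were lower by their brightest probe sets, from -0.58 to -0.15 with a median of -0.31. No marker of dividing cells was measured, and Mki67, Top2a and Cdk1 read at most 28.9. The actin controls gave 3' to 5' signal ratios of 1.47 (knockout) and 1.25 (wild type), and the Gapdh controls 0.863 and 0.873. The part of cell makeup or RNA quality in the enzyme values was not tested. In bulk RNA, fewer cells of a type and less RNA per cell cannot be told apart.

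The enzymes as a group had a median difference near 0 between the pools. Of the 64 genes, 59 were measured, and 2 of these (3.39%) differed at least 1.5-fold, Kdm5a and Sirt1, both higher in the knockout pool. The background over all measured genes was 3.5% past 1.5-fold, made up of 2.06% higher and 1.44% lower. The share among the enzymes was thus near the background. At 1.2-fold, 4 enzyme genes (6.78%) were higher and 7 (11.9%) lower, against 11.9% and 9.97% of all measured genes and 21.9% in either direction. The median difference was -0.01 over the enzymes and 0.00 over all measured genes. Without regard to sign, the median difference was 0.16 over the enzymes and 0.13 over all measured genes. In all 27 enzymes were higher and 32 lower. Centring each array on its median moved every gene alike, to a median of -0.06 over all measured genes, and gave 18 enzymes higher and 41 lower. It left 38.9% of all measured genes higher, against 50.9% without it. Past 1.2-fold it gave 4 enzymes higher and 11 lower, beside 8.73% and 14.6% of all measured genes.

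**Figure D1:**
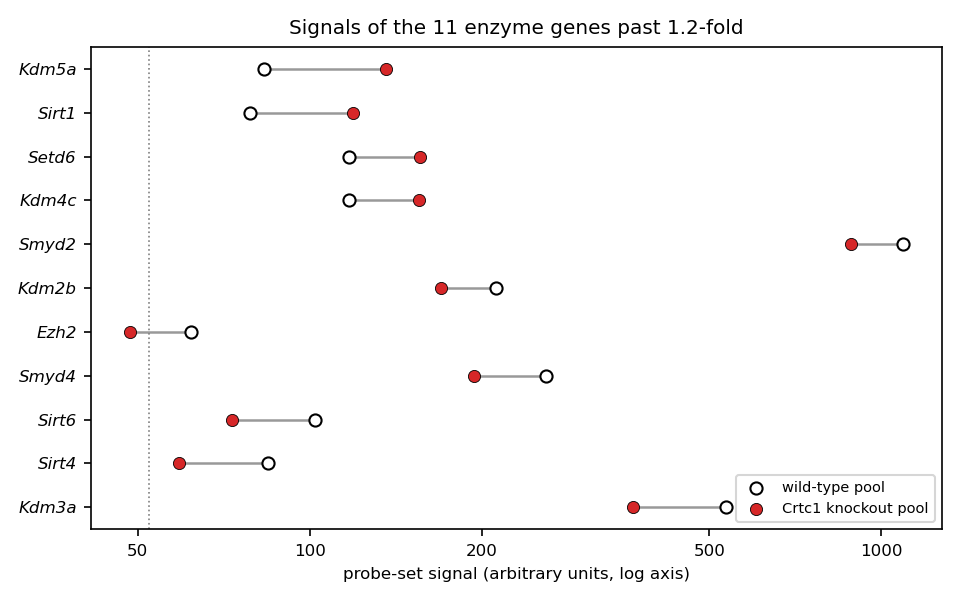
Signal of the brightest measured probe set in the wild-type pool (open circles) and the Crtc1 knockout pool (red circles) for the 11 enzyme genes that differed at least 1.2-fold, on a log axis; each circle is 1 array and the dotted line is the limit for a measured probe set. Kdm5a, Sirt1, Setd6 and Kdm4c are higher in the knockout pool and the other 7 are lower, and Ezh2 crosses the limit of 52.3.

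The differences that were largest came mostly from dim probe sets. Of the 22 enzyme genes with a mean log2 signal under 8, 9 passed 1.2-fold, and of the 37 brighter ones 2 did, Kdm3a and Smyd2. The same holds across the array, since 43.2% of all measured genes under a mean log2 signal of 7 passed 1.2-fold and 8.20% of those at 9 or over. Under 7, 5 of 9 enzyme genes passed it, and at 9 or over 1 of 17. In all 15 of the 59 enzymes (25.4%) differed by more than their array error, 5 higher and 10 lower, against 25.2% of all measured genes. Of the enzymes, only Kdm3a and Kdm5a differed by more than 2 array errors. The share of all measured genes past 2 array errors is not given here, so this count does not set the enzymes apart.

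**Figure D2:**
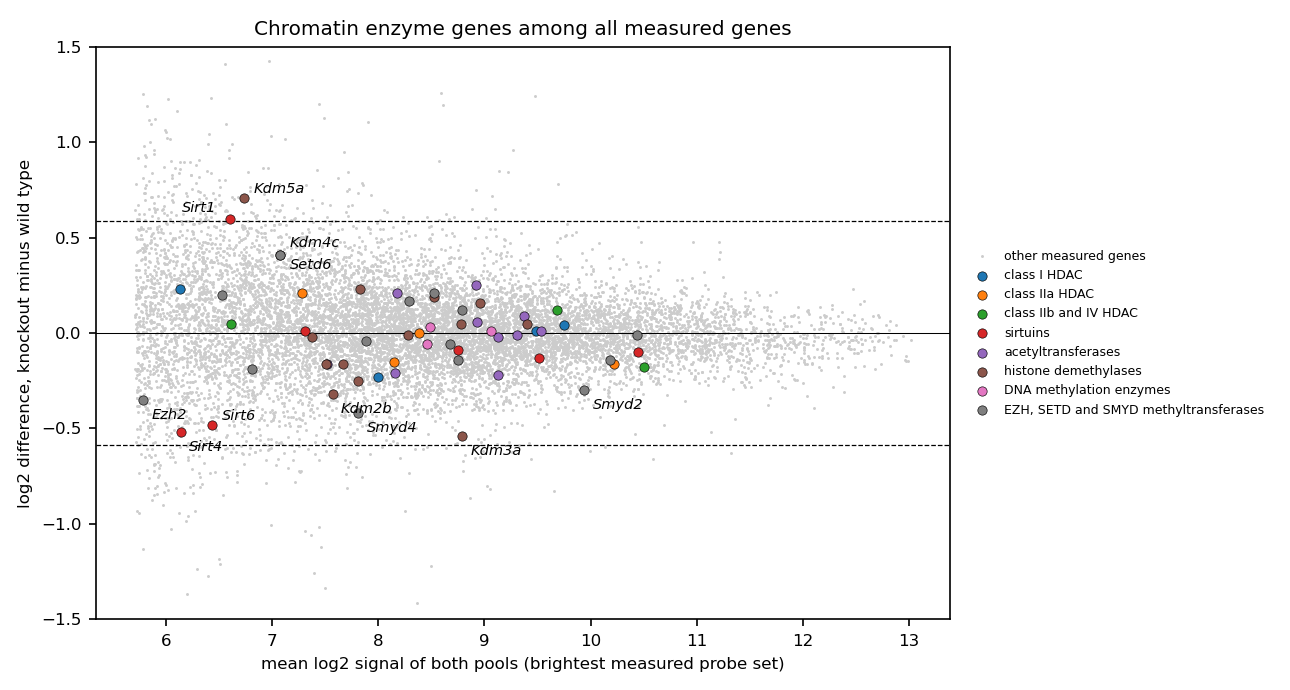
Log2 difference between the pools (knockout minus wild type) against the mean log2 signal of the brightest measured probe set, with the 59 enzyme genes coloured by class and the other measured genes in grey; dashed lines mark 1.5-fold, and 8 genes lie outside the vertical range. The enzyme genes sit within the grey cloud at their signal, and the 2 past a dashed line, Kdm5a and Sirt1, have mean log2 signals of 6.73 and 6.60.

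None of the 11 zinc-dependent deacetylase genes differed by 1.2-fold. The class I genes Hdac1, Hdac2 and Hdac3 encode nuclear enzymes of corepressor complexes. Hdac1 read 237 in the knockout pool against 278 in wild type (difference -0.23, array error 0.23). Its close relative Hdac2 read 720 and 716 (0.01), and a dimmer probe set of Hdac2 was higher by 0.14. Hdac3, the catalytic subunit of the nuclear receptor corepressor complexes, read 874 and 850 (0.04), and Hdac8 read 75.6 and 64.5 (0.23, array error 0.32). Each of the class I differences was close to or within the array error.

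The class IIa deacetylases move between nucleus and cytoplasm under control of the kinases that also act on CRTC proteins. Hdac5 read 1132 in the knockout pool against 1261 in wild type, a difference of -0.16 that equals its array error of 0.16. Hdac4, read by 3 measured probe sets, lay at 0.00 by the brightest and between -0.01 and 0.13 over all. Hdac7 differed by -0.15 and 0.03. Hdac9 was 0.21 by one probe set and -0.23 by the other, leaving its direction unsettled. The median of the 4 genes was -0.08.

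Among the remaining deacetylases, Hdac11, the only class IV member and a gene with strong brain expression, read 1365 and 1543 and was lower by both probe sets (-0.18 and -0.11, array errors 0.16 and 0.21). Hdac6, which deacetylates tubulin, read 856 and 789 (0.12). Hdac10, a polyamine deacetylase, read 99.3 and 96.1 (0.05). Of these, only the brighter reading of Hdac11 passed its array error.

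The sirtuins, which use NAD as cosubstrate, held both a gene past 1.5-fold and some of the lowest values. Sirt1 read 119 in the knockout pool against 78.7 in wild type, 1.52-fold higher (0.60, array error 0.32), by its single probe set. It was just past 1.5-fold, and was 0.52 to 0.55 with median centring, quantile normalization, loess or a pseudocount, all under 1.5-fold. Sirt4, a mitochondrial sirtuin, read 59.0 and 84.5, 1.43-fold lower (-0.52), and Sirt6, a chromatin-bound deacetylase of histone H3, read 73.1 and 102, 1.40-fold lower (-0.48). All 3 probe sets were dim, with an array error of 0.32 each.

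The other sirtuins differed less than their array errors. Sirt2, the cytoplasmic tubulin deacetylase abundant in oligodendrocytes, read 1355 in the knockout pool against 1448 in wild type (-0.10). Sirt3, the main mitochondrial deacetylase, read 696 and 761 (-0.13). Sirt7, a nucleolar sirtuin, read 417 and 443 (-0.09), and Sirt5, a mitochondrial desuccinylase, read 160 and 158 (0.01) with a second probe set at 0.19. In all 5 of 7 sirtuins were lower and 2 higher, with a median of -0.10, while 50.9% of all measured genes were higher.

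Promoter windows of 250 bases before to 50 bases after a start site were searched for the cAMP response element TGACGTCA, the site CREB binds, and for its 5-base core, TGACG on either strand (CGTCA as read here). RefSeq's table (GRCm38.p6) held 74 windows for 53 of the 64 genes. The full element was in none of the 74 windows, against 1.79% of all 32851 windows in the table. The core, which is part of the full element, was in 28.4% of the enzyme windows and 20.8% of all windows. The enzyme windows had a median GC content of 62.3% and 22 CpG sites, against 52.7% and 7 over all windows. A match is a description of the letters and says nothing about binding. The windows of Sirt1, Sirt4 and Kdm4c are shown because these were the genes of largest difference with the core in the window, a choice made after their values were seen. Capitals mark the core. The Sirt1 window is chr10:63338986-63339285 (minus strand), that of Sirt4 chr5:115484248-115484547 (minus strand) and that of Kdm4c chr4:74251629-74251928 (plus strand), each written 5′ to 3′ on the strand of the gene.
Sirt1: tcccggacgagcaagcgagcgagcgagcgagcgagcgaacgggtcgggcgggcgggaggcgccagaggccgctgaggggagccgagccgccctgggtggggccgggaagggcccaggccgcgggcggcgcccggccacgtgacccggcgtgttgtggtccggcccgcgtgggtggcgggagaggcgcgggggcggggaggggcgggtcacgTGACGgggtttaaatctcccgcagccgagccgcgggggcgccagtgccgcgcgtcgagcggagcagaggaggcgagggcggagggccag
Sirt4: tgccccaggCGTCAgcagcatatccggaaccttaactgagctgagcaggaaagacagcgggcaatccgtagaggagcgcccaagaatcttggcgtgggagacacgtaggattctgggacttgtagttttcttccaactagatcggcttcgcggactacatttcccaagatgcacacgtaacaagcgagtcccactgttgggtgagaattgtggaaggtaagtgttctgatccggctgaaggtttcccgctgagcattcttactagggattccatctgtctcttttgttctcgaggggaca
Kdm4c: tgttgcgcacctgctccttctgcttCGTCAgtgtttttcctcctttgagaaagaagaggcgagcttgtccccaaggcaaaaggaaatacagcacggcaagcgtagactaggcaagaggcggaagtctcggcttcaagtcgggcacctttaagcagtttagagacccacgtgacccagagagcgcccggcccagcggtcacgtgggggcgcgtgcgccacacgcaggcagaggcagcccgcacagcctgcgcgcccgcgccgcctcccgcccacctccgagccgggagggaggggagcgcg

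The Sirt1 window has the core at base 212, inside the stretch just upstream of the start site, while those of Sirt4 and Kdm4c have it at bases 10 and 26, far from the start. Sirt1 and Kdm4c were higher in the knockout pool and Sirt4 lower, so the genes whose windows are shown did not share a direction. Of the 18 measured enzymes with the core in a window, 4 were higher, 14 were lower and 5 passed 1.2-fold, with a median of -0.05. Of the 30 with windows that lack it, 16 were higher and 5 passed 1.2-fold, with a median of 0.01. The difference between enzymes with and without the core was not tested. Over all measured genes, 50.9% were higher and 21.9% passed 1.2-fold. The shares among all genes with the core are not given here, so the counts say nothing particular about these enzymes.

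The acetyltransferase genes had the narrowest spread of the larger classes by brightest probe sets, from -0.22 to 0.25. Of these genes 5 were higher and 5 lower, with none past 1.2-fold. All but Kat8 had a mean log2 signal over 8, and differences shrank with signal across the array. Crebbp, which encodes CBP, read 684 in the knockout pool against 642 in wild type by its brightest probe set and 468 and 440 by the next (0.09 each). A dimmer one read 121 and 80.0 (0.59, array error 0.32), and the last read 3.6 and 0.8, under the floor in both pools. Ep300, which encodes p300, read 632.5 and 635 by its single probe set (-0.01). Both coactivator genes that bind CREB were thus within their array errors by their brightest probe sets.

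Kat6a, a MYST-family acetyltransferase of histone H3, read 530 in the knockout pool against 446 in wild type (0.25, array error 0.23). Its paralog Kat6b read 312 and 269 (0.21, array error 0.23). Kat2a, the GCN5 enzyme of the SAGA complex, read 518 and 603 by its brightest probe set (-0.22, array error 0.21), 541 and 526 by another of nearly equal signal (0.04) and 104 and 133 by a dim one (-0.36). Its paralog Kat2b, which encodes PCAF, was at 0.06 and 0.30. Kat14, of the ATAC complex, was lower by both measured probe sets (-0.21 and -0.11).

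The remaining acetyltransferases were flat or within error. Kat5, which encodes TIP60, read 557 and 566 (-0.02) and 535 and 537 (-0.01), close agreement between its probe sets. Kat7, the HBO1 enzyme, read 740 and 736 (0.01). Kat8, the MOF enzyme that acetylates histone H4 at lysine 16, read 174 and 194 (-0.16, array error 0.26). Kat6a lies on the chromosome of Crtc1, 258 protein-coding genes away from it.

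The histone demethylases spread furthest, from -0.54 to 0.71. Kdm5a, which removes methyl groups from lysine 4 of histone H3, read 136 in the knockout pool against 83.1 in wild type, 1.63-fold higher (0.71, array error 0.32). It stayed past 1.5-fold in each setting that measured it, from 0.61 to 0.71. It rests on 1 measured probe set of 6. Of its dimmer probe sets, one read 53.0 and 30.2 (0.81), another 54.2 and 49.3 (0.14) and another 38.3 and 37.6 (0.03), and the last 2 were at or near the floor. The dim readings therefore did not settle the size of the difference.

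Kdm3a, a demethylase of lysine 9 of histone H3 that is known for its role in energy expenditure and in fertility, was the lowest of all 59 enzymes. It read 368 in the knockout pool against 534 in wild type, 1.45-fold lower (-0.54, array error 0.23), by its single probe set. Of the differences past 1.2-fold it was the one furthest above its array error, at 2.35 times that error. With median centring it was -0.60, past 1.5-fold. Its paralog Kdm3b read 528 and 473 (0.16), the opposite sign and within error.

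Kdm4c, a demethylase of lysines 9 and 36 of histone H3, read 155 in the knockout pool against 117 in wild type, 1.32-fold higher (0.41, array error 0.26). Its paralogs Kdm4a, at 192 and 215, and Kdm4b, at 172 and 192, were each at -0.16. Kdm2b, which brings a variant Polycomb complex to CpG islands, read 170 and 212 by one probe set, 1.25-fold lower (-0.32, array error 0.26), and 198 and 173 by another of nearly the same mean signal (0.20). It thus passed 1.2-fold with no settled direction (-0.06 as the average of both). Kdm2a, its paralog, ranged from -0.06 to 0.19 over 3 measured probe sets.

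The X-linked demethylases were read differently by their own probe sets. Kdm5c, mutated in an intellectual disability syndrome, had 9 probe sets, the most of any enzyme gene, and 5 were measured. The brightest read 206 and 245 (-0.25, array error 0.26) and the next 166 and 173 (-0.06), while the 3 dimmer ones read 122 and 105 (0.21), 72.7 and 64.9 (0.16), and 74.3 and 51.6 (0.53). Kdm6a, which removes methyl groups from lysine 27 of histone H3, read 164 and 166 by one probe set (-0.02) and 116 and 81.3 by a dimmer one (0.52). Their Y-linked counterparts, Kdm5d and Uty, read 130 and 116 (0.17) and 106 and 63.9 (0.72), each by 1 probe set with an array error of 0.32.

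Demethylases with the smallest differences included Kdm1a, the LSD1 enzyme, at 687 and 666 (0.05) and 385 and 384 (0.00). Kdm5b lay at -0.01 by its brightest probe set and was lower by all 3. Kdm6b, a demethylase of lysine 27 of histone H3 that is induced by many stimuli, was higher by both measured probe sets, at 0.23 and 0.09. Kdm7a was higher by all 3, from 0.05 to 0.26. Kdm1b (48.9 and 42.8) and Kdm8 (49.7 and 26.5) were too dim to count as measured. Of the 14 measured demethylases 7 were higher and 7 lower, with a median of 0.02, and 4 passed 1.2-fold, 2 in each direction. Of all measured genes, 11.9% were higher and 9.97% lower past 1.2-fold.

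**Figure D3:**
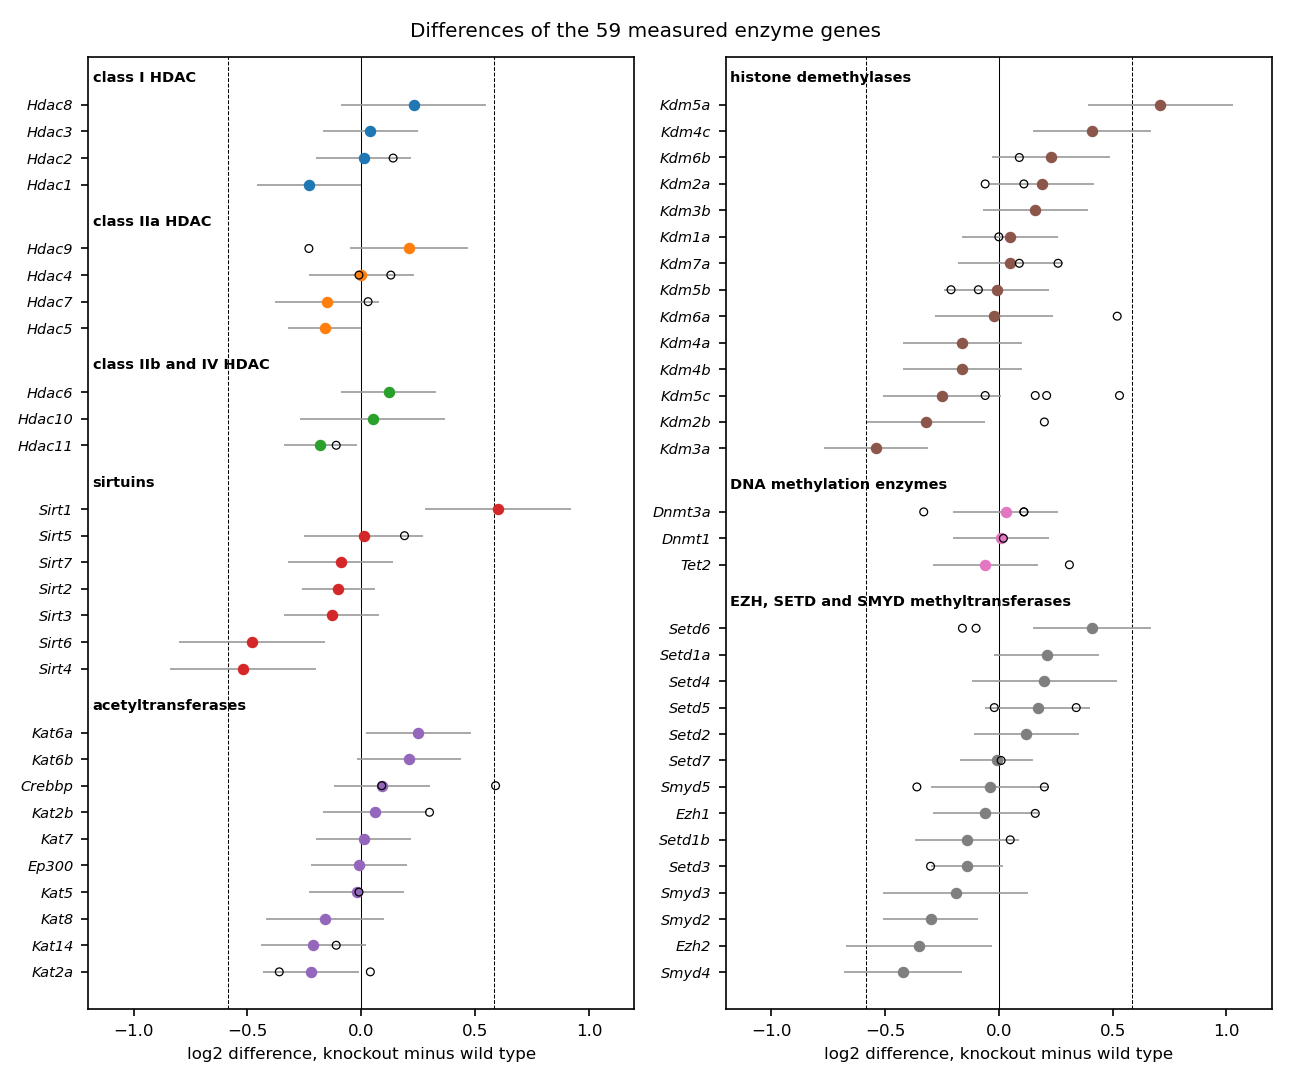
Log2 difference (knockout minus wild type) of each of the 59 measured enzyme genes by class; filled circles are the brightest measured probe set with a bar of 1 array error, open circles are the other measured probe sets of the same gene, and dashed lines mark 1.5-fold. Kdm5a at 0.71 and Sirt1 at 0.60 are the only filled circles past a dashed line. Of the 29 genes with open circles, 13 have all circles on one side of 0. Hdac9, Kdm2b, Kdm5c and Setd6 are among those that do not.

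By their brightest probe sets, the DNA methylation enzymes that could be read were close to equal in both pools. Dnmt1, the maintenance methyltransferase, read 538 in the knockout pool against 533 in wild type (0.01) and 232 and 229 by its second measured probe set (0.02). Dnmt3a, the de novo methyltransferase of neurons, read 365 and 357 (0.03) and 306 and 283 (0.11). Its dimmer probe sets were at 0.11 and -0.33, with an array error of 0.32 each. Tet2 read 345 and 359 (-0.06) by its brightest probe set. Its other one read 284 and 229 (0.31), past its array error of 0.26. The 3 other genes of this class, Dnmt3b, Tet1 and Tet3, had no measured probe set. Tet1 read at most 54.9 by any of its 4 probe sets, Dnmt3b at most 37.3, and Tet3 read 32.0 in the knockout pool and 9.3, below the floor, in the wild type.

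The methyltransferases of the EZH, SETD and SMYD families were lower in 9 of 14 cases, with a median of -0.05. Past 1.2-fold were 4 genes, 1 higher and 3 lower, beside 11.9% and 9.97% of all measured genes. Ezh2, the catalytic subunit of Polycomb repressive complex 2 in dividing cells, read 48.5 in the knockout pool against 62.0 in wild type, 1.28-fold lower (-0.35, array error 0.32), and its knockout signal alone would not have counted as measured. With the floor at the 50th percentile Ezh2 was at -0.19, under 1.2-fold. Ezh1, the form that prevails in cells that no longer divide, read 401 and 417 (-0.06) and 193 and 173 (0.16). Without the probe sets whose ID ends in _s_at, _x_at or _a_at, which can match several transcripts, the class median was 0.05.

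Smyd4 was the lowest gene of these families, at 194 in the knockout pool against 259 in wild type, 1.34-fold lower (-0.42, array error 0.26). Smyd2, which methylates p53 and histone H3, read 885 and 1093, 1.23-fold lower (-0.30, array error 0.21), from the brightest probe set among the 11 genes past 1.2-fold. Smyd3 read 105 and 120 (-0.19). Smyd5 read 232 and 239 (-0.04), 177 and 154 (0.20), and 58.1 and 74.6 (-0.36), again with mixed signs. Each of the 4 Smyd genes was lower by its brightest probe set, but Smyd3 and Smyd5 were within their array errors (0.32 and 0.26). Over all measured genes, 50.9% were higher.

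Setd6, which methylates the RelA subunit of NF-kappaB, read 156 in the knockout pool against 117 in wild type by its brightest probe set, 1.33-fold higher (0.41, array error 0.26). A probe set of almost the same mean signal read 126 and 140 (-0.16) and a dimmer one 52.7 and 56.5 (-0.10), and the mean of all 3 was 0.05. Setd6 is on the chromosome of Crtc1, 286 protein-coding genes away. Setd3, the actin histidine methyltransferase, read 1105 and 1222 and was lower by both probe sets (-0.14 and -0.30). Setd7, a methyltransferase of lysine 4 of histone H3, read 1380 and 1392 (-0.01) and 56.1 and 55.7 (0.01).

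By their brightest probe sets, Setd1a, Setd1b, Setd2, Setd4 and Setd5 were within error. Setd1a read 394 and 342 (0.21, array error 0.23), and its paralog Setd1b read 411 and 451 (-0.14) and 419 and 405 (0.05). Setd2, the main enzyme of lysine 36 trimethylation, read 463 and 425 (0.12). Setd5 read 332 and 296 (0.17), 165 and 131 (0.34, past its array error of 0.26) and 64.1 and 65.1 (-0.02). Setd4 read 99.0 and 86.4 (0.20, array error 0.32).

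Repeat probe sets gave a second reading of the same pools for many of these genes. Of the 29 enzyme genes with at least 2 measured probe sets, 13 (44.8%) had all of them on one side of 0, against 42.5% of the 5199 such genes on the array. The share among the enzymes was near that of all genes. The median spread between the lowest and highest probe set of an enzyme gene was 0.21, and the largest was 0.77, in Kdm5c. No enzyme gene had 2 or more measured probe sets that all differed by at least 0.2 in one direction. The share among all genes with repeat probe sets is not given here, so this says nothing particular about the enzymes. Over single probe sets, 3 of 102 measured enzyme probe sets differed at least 1.5-fold, those of Kdm5a and Sirt1 and the dim one of Crebbp, against 4.44% of all measured probe sets with 1 gene.

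Of the 153 probe sets, 102 (66.7%) were measured, against 56.7% of all probe sets with 1 gene, and 25 were at the floor in both pools. Of 17 probe sets designed on a RefSeq mRNA 15 were measured, as were 74 of 116 designed on other accessions and 13 of 20 with none given.

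The subunits, readers and cofactor enzymes that work with these enzymes also stayed close to 0. Of 120 genes on 6 lists 102 were measured, 57 higher and 45 lower, with a median of 0.03. Of these 2 were at least 1.5-fold higher and 1 at least 1.5-fold lower, beside 2.06% and 1.44% of all measured genes. Epc2, a subunit of the TIP60 acetyltransferase complex, read 864 in the knockout pool against 443 in wild type, 1.95-fold higher (0.96, array error 0.21), by 1 probe set. Uty, given above, was 1.65-fold higher, and Setdb2, a methyltransferase of lysine 9 of histone H3, read 53.4 and 83.9, 1.57-fold lower (-0.65, array error 0.32).

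**Figure D4:**
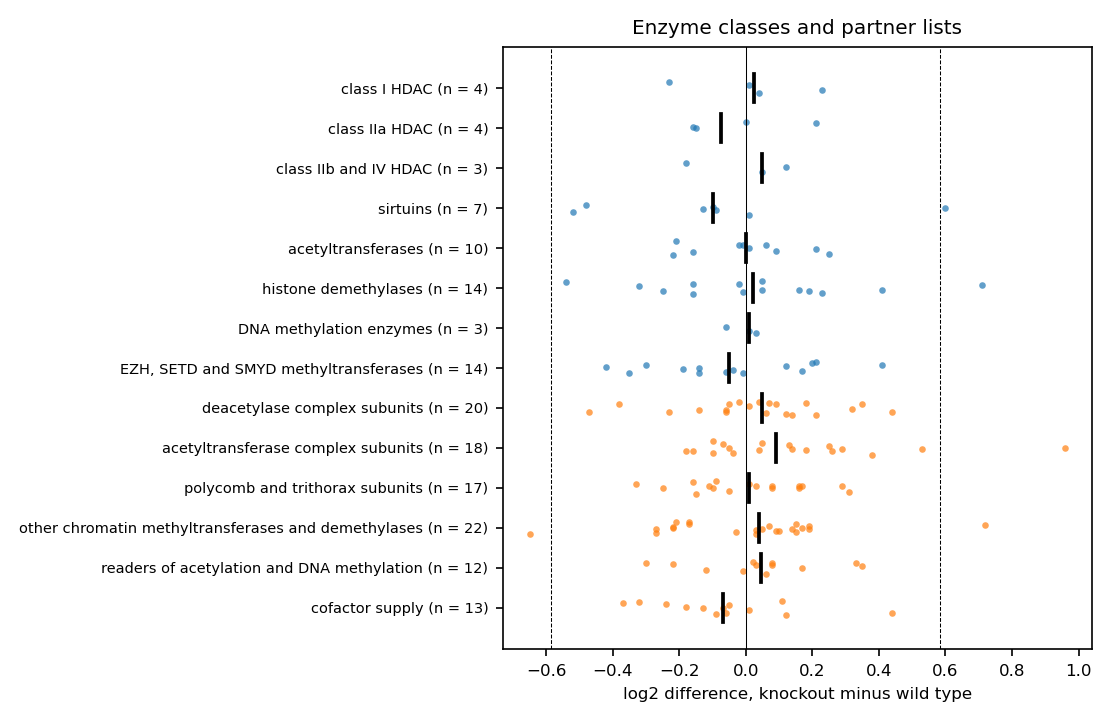
Log2 difference (knockout minus wild type) of each measured gene, by its brightest measured probe set, for the 8 enzyme classes (blue) and the 6 lists of partner genes (orange); thick bars are medians and dashed lines mark 1.5-fold. Medians lie between -0.10, in the sirtuins, and 0.09, in the acetyltransferase complex subunits.

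Among deacetylase complex subunits, 12 of 20 were higher and the median was 0.05. Rcor1, the CoREST scaffold that joins HDAC1 and LSD1, was lower by all 3 measured probe sets, from -0.47 to -0.31, and read 163 and 226 by the brightest. Mbd3, of the NuRD complex, read 282 and 365 (-0.38, array error 0.23), and Sap30, of the Sin3 complex and on the chromosome of Crtc1, read 196 and 144 (0.44, array error 0.26). Acetyltransferase complex subunits were higher in 11 of 18 cases, with a median of 0.09, and included Hat1, the cytoplasmic acetyltransferase of new histone H4, at 222 and 154 (0.53, array error 0.26).

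Polycomb and trithorax subunits had a median of 0.01 over 17 genes, with 9 higher and none past 1.5-fold. Other chromatin methyltransferases and demethylases had a median of 0.04 over 22 genes. Readers of acetylated histones and methylated DNA had a median of 0.05 over 12, with 8 higher. Genes of cofactor supply covered the metabolism of acetyl-CoA, NAD and S-adenosylmethionine, with isocitrate and succinate dehydrogenase and fumarase genes. They were lower in 9 of 13 cases with a median of -0.07. Past 1.2-fold, 1 was higher and 2 were lower, each with an array error of 0.23. Over all measured genes, 50.9% were higher, and past 1.2-fold 11.9% were higher and 9.97% lower. Ahcy, which clears S-adenosylhomocysteine, read 450 and 332 (0.44), Idh2 422 and 545 (-0.37), and Acss1 243 and 303 (-0.32). The sign of the median changed with median centring for the deacetylase complex subunits, the Polycomb and trithorax subunits, the other methyltransferases and demethylases, and the readers.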

How the data were processed

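The authors' deposited values are linear signal intensities, 1 per probe set and array, for 45101 probe sets. Per the labels, 30 ug of total RNA went into biotin-labelled cRNA. No source used here names the summary algorithm or the scaling. In the values the mean without the lowest and highest 2% was 200.0 on both arrays, with medians of 54.4 and 52.2 (log2 ratio 0.06, under the limit of 0.1), so the deposited scaling was kept. Dim signals were the noisiest, with an array error of 0.32 for mean log2 signals under 7. Control probe sets (64) were left out. Signals under the 30th percentile of an array were set to it (20.5 in the knockout, 20.2 in the wild type) and put on the log2 scale, which kept 22519 measured probe sets and 11312 genes. Genes were named from the platform annotation, updated by Entrez ID through RefSeq (34754 of 34945 probe sets matched). The enzymes, lists and rules were chosen with earlier results of these data known. Every enzyme may be named. Both signals are given for enzymes past 1.2-fold, the brightest and most different of each class, and those with conflicting probe sets at least 0.5 apart, all probe sets of Crebbp, Ep300, Sirt1 and Hdac5 are given, and of the partner genes those past 1.5-fold are named by rule. Rcor1, Mbd3, Sap30, Hat1, Ahcy, Idh2, Acss1 and Kdm5d were picked after their values were seen. The calculation was tested on simulated data. Python 3.11.15, pandas 2.3.3 and statsmodels 0.14.6 were used. The number of arrays limits the precision.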

Additional observations from a re-analysis of the deposited data

How the results depend on the processing

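The count of enzyme genes past 1.5-fold was 2, and it was 1 with quantile normalization, loess or a pseudocount of 16, 4 with no filter on dim probe sets (all higher, with Kdm8 and Tet3 added) and 0 with the filter at the 70th percentile. Kdm5a and Sirt1 are too dim for that stricter filter. It left 45 enzymes, with 4 past 1.2-fold, all lower, beside 6.81% of all measured genes higher and 7.57% lower. Past 1.5-fold, the shares of all genes were 3.5% in the main setting, 3.38% with quantile normalization and 3.39% with loess. They were 2.07% with the pseudocount, 7.15% with no filter and 1.17% with the stricter filter. Median centring moved all measured genes to a median of -0.06 and the enzymes to -0.07. With it the class medians were -0.03 for class I, -0.14 for class IIa and -0.01 for class IIb and IV deacetylases, -0.16 for sirtuins, -0.06 for acetyltransferases, -0.04 for demethylases, -0.05 for DNA methylation enzymes and -0.11 for the EZH, SETD and SMYD families. The demethylase median was 0.10 with averaged probe sets, and the EZH, SETD and SMYD median was 0.05 without multi-transcript probe sets. Of the partner medians, with median centring the deacetylase complex subunits were -0.01, the acetyltransferase complex subunits 0.03, the Polycomb and trithorax subunits -0.05, the other methyltransferases and demethylases -0.02, the readers -0.01 and cofactor supply -0.13, by the same shift. With averaged probe sets the deacetylase complex subunits were -0.04 and the other methyltransferases and demethylases -0.02. The acetyltransferase complex subunits were 0.00 with the stricter filter or without multi-transcript probe sets, where 3 of the 15 enzymes left with repeat probe sets had 1 sign, against 45.5% of all such genes. The partner and repeat-probe alternatives were chosen after seeing the data, and the causes of these shifts were not tested. Of 295 values of the 28 named enzymes over 11 alternatives, 291 stayed within 1 array error, and 17 of the 28 kept their sign in each setting. Symbols as printed in the annotation gave the same members. With 1 array per group no replicate could be left out. No paired analysis was possible because each group is 1 pooled array.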
